A study of Mus musculus with 32 samples.

Results

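Toll-like receptors recognise molecules of microbes and of damaged cells, and microglia carry most of the mouse family. The 10 genes described here were the surface receptors Tlr1, Tlr2, Tlr4 and Tlr6, the co-receptor Cd14, the receptors of internal vesicles Tlr3, Tlr7, Tlr9 and Tlr13, and the adaptor Myd88. They were chosen by gene symbol, with earlier results of these data known. All 10 were listed in both deposited tables, among 13377 genes in the female table and 11999 in the male table. All 10 passed the filter on low counts in each table.

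Microglia had been sorted by fluorescence from mouse spinal cord, and their RNA was sequenced in 32 libraries, 15 of females and 17 of males, at day 14. Every mouse bears the genotype label Cx3Cr1-Cre;Rosa26-iDTR, in which a Cre driven by the promoter of Cx3cr1 and activated by tamoxifen switches on a receptor for diphtheria toxin in cells that use that promoter, so that the toxin transiently removes microglia. The term repopulated is used for microglia of depleted mice, and resident for those of mice without depletion. Each kind was sampled with an injury, named a fracture in the titles, and without one. The groups with fracture held 4 repopulated and 4 resident female libraries, and 7 repopulated and 5 resident male libraries. The groups without fracture held 3 repopulated and 4 resident female libraries, and 2 repopulated and 3 resident male libraries. The descriptions call the resident libraries wild type (Wt or WT), while they call the repopulated ones Dt in females and iDTR in males, and the sources used here do not say whether resident mice received the toxin. Toxin exposure and, if the descriptions hold, genotype therefore cannot be told apart from repopulation. The age of the mice is not given, nor is it said that each library came from a separate animal, so p-values reflect only how much these samples vary, and that variation may be technical. Female and male RNA was prepared with different kits, and each table was analysed apart; between the tables, sex and preparation cannot be told apart.

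As background, most Toll-like receptors signal through the adaptor Myd88 to kinases of the Irak family and on to NF-kappaB, the factor that turns on genes of cytokines and chemokines. Tlr2 recognises bacterial lipoproteins as a pair with Tlr1 or with Tlr6, and Tlr4 recognises bacterial lipopolysaccharide with the help of Cd14 and Ly96. The receptors of internal vesicles read nucleic acids: Tlr3 double-stranded RNA, Tlr7 single-stranded RNA, Tlr9 DNA and Tlr13, which mice have, bacterial ribosomal RNA. Tlr3 is the exception that signals through Ticam1 and not through Myd88.

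The data centre on Tlr2. It was higher in repopulated than in resident microglia in all 4 comparisons, by 1.55-fold to 3.37-fold, while 7 of the 10 genes, Myd88 among them, passed the test in none. Tlr3 was also higher, and Cd14 lower, in 1 comparison, that of males without fracture. The start regions of the 2 genes that rose are shown first, because the NF-kappaB that these receptors activate binds DNA words of a known form. The windows hold 250 bases before and 50 bases after a start of transcription given by RefSeq on GRCm38.p6, 5′ to 3′ on the gene's strand. Capitals mark matches to the kappaB consensus, the DNA word of NF-kappaB. The Tlr2 window lies at chr3:83841559-83841858 on the minus strand and the Tlr3 window at chr8:45410331-45410630 on the minus strand.
Tlr2: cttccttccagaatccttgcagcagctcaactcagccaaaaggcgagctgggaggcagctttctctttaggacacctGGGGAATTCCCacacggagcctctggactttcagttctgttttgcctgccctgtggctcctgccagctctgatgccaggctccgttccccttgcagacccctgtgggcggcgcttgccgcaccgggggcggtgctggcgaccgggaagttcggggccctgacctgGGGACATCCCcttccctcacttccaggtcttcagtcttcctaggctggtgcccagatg
Tlr3: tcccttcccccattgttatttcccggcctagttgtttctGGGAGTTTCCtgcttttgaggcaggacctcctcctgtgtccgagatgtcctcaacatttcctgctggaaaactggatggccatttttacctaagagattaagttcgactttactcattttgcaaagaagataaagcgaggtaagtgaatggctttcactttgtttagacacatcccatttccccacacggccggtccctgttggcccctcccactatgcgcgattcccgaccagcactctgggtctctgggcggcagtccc

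GENCODE M21 sets the starts of both genes, and of the leading Tlr3 transcript, elsewhere. The RefSeq start lies 159 bases downstream of the GENCODE start of Tlr2, and 700 bases downstream of that of the Tlr3 gene. It lies 239 bases downstream of the start of the leading Tlr3 transcript in these tables. Another Tlr3 transcript, with 8.93% of the Tlr3 counts in females and 3.27% in males, starts at the RefSeq start in GENCODE too. Part of the Tlr2 window and the whole Tlr3 window thus lie within the GENCODE gene. The Tlr2 window held the overlapping words GGGGAATTCC at position -173 and GGGAATTCCC at position -172, counted from the RefSeq start, and the word GGGACATCCC at position -8. The Tlr3 window held GGGAGTTTCC at position -211. On either strand, 8.46% of 32851 mouse promoter windows of the same length held a match to the consensus. The exact word GGGGAATTCC, picked after the Tlr2 window had been read, stood in 31 of them, or 0.0944%. The table gave windows for 7 of the 10 genes, and of these genes Tlr2 and Tlr3 alone had a consensus match. These are matches of letters, not evidence that a factor was bound in these cells. The other words searched, on both strands, were GAGGAA (in 28.3% of all windows), TGANTCA (7.81%), TTCNNNGAA (8.30%) and a pair of GAAA words on the same strand, 2 bases apart, the core of elements that interferon regulatory factors bind (3.44%). None of these was in the Tlr2 or Tlr3 window, but each was in windows of other genes described here. GAGGAA was in those of Tlr1, Tlr9 and Tlr13, and TGANTCA in that of Tlr9. TTCNNNGAA was in those of Tlr1, Tlr6 and Myd88, and the GAAA pair in those of Tlr6 and Myd88. Cd14, Tlr4 and Tlr7 had no window.

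Levels are given as CPM, the count of a gene relative to the total of its library, corrected for composition by the TMM method of edgeR. The libraries held 16438827 to 18654165 counts in females and 5722993 to 33697535 in males, where the repopulated libraries lay between 9644000 and 14914799 counts. Calls are genes with a Benjamini-Hochberg adjusted p below 0.05 in edgeR's quasi-likelihood test over all genes of a table. In these bulk samples, fewer cells of a type and less RNA per cell cannot be told apart. The sorted cells had the RNA of microglia. Tmem119, a marker of microglia, was between 3035 and 4039 CPM in repopulated and between 3674 and 4508 CPM in resident females, and between 5984 and 8722 CPM in repopulated and between 8149 and 9418 CPM in resident males. P2ry12, a receptor for nucleotides that also marks them, was between 2781 and 4394 CPM in repopulated and between 3769 and 6659.6 CPM in resident females, and between 3200.03 and 6208 CPM in repopulated and between 6576 and 7654 CPM in resident males. P2ry12 fell in repopulated against resident microglia in females without fracture (-0.75 ± 0.16), in males with fracture (-0.49 ± 0.09) and in males without (-1.12 ± 0.15), and Tmem119 in males without fracture (-0.39 ± 0.11), on the log2 scale. Of the other listed markers of microglia, Cx3cr1 fell in females with fracture (-0.34 ± 0.08) and in males without (-0.52 ± 0.13), Gpr34 in males with fracture (-0.34 ± 0.08) and without (-0.82 ± 0.13), and Sall1 in females without fracture (-0.31 ± 0.08). The adjusted p of these calls was 7.77e-05 to 0.0486 by edgeR.

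Scaled by transcript length, as CPM per kilobase, the order of the levels was alike in both tables. Cd14 stood highest, at 322 to 340 CPM per kilobase over the means of the 4 female groups and 528 to 684 over those of the male groups. Tlr2 came next and had the widest range of the group means, 113 to 250 CPM per kilobase in females and 115 to 388 in males. In resident females with fracture Tlr2, at 113 ± 4.02 CPM per kilobase (SD, n = 4), and Tlr13, at 104 ± 5.04, were neighbours in the order. Tlr13 lay at 81.4 to 105 CPM per kilobase over the 8 groups and Tlr7 at 53.8 to 72.9. Myd88 lay at 48.2 to 54.4. In females Tlr4 lay at 43.2 to 47.1 and Tlr3 at 40.3 to 50.7. In males Tlr4 lay at 33.8 to 39.0 and Tlr3 at 29.8 to 56.2. The SDs of Myd88 and Tlr4 overlapped in the female groups and not in the male ones. Tlr1 stood at 40.8 to 50.4 CPM per kilobase in females and at 19.2 to 31.4 in males. Tlr6 was lower, at 15.01 to 22.1 CPM per kilobase. Tlr9 was the lowest in every group, with 0.778 to 1.78 CPM per kilobase, and its estimated count per library was between 6 and 197.

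**Figure D1:**
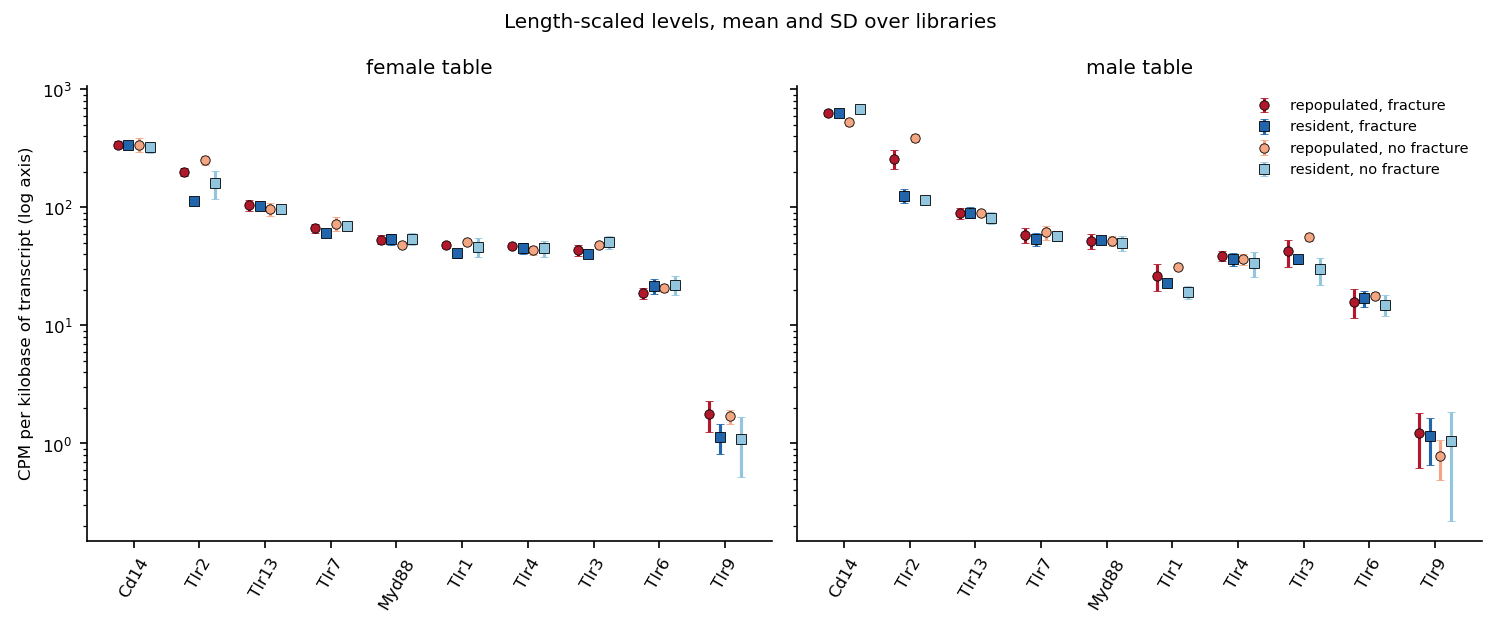
Length-scaled level (CPM per kilobase of transcript, logarithmic axis) of each gene in the 4 groups of the female (left) and male (right) table. Points are group means and bars are SDs over libraries. Cd14 was highest and Tlr9 lowest in all 8 groups, and Tlr2 is the gene whose groups lie farthest apart.

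Among the surface receptors, Tlr2 lies on chromosome 3 (GRCm38, GENCODE M21, positions 83836272 to 83841767, minus strand), and all of its counts came from 1 listed transcript of 3014 bases. In males without fracture Tlr2 had 1231 and 1107 CPM in the repopulated libraries, against 341, 369 and 333 CPM in the resident ones. Both repopulated libraries stood far above all 3 resident ones, and the log2 fold change was 1.75 ± 0.16 (SE), or 3.37-fold, with an adjusted p of 3.1e-06 by edgeR. By its p-value Tlr2 ranked 2 of all 11999 genes there.

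With fracture, Tlr2 in males spanned 566 to 1025 CPM with a median of 753 in the 7 repopulated libraries, against 464, 333, 335, 381 and 381 CPM in the resident ones. The groups did not overlap, and the lowest repopulated library, replicate 1, was the one nearest to the resident ones. The log2 fold change was 1.04 ± 0.11 (2.06-fold, adjusted p = 1.59e-05 by edgeR), and Tlr2 ranked 3 by p-value. The titles of the male libraries bear V numbers in 2 ranges, whose meaning is not given. Within V64 to V79 the log2 fold change was 0.90 ± 0.15 (adjusted p = 0.0397 by edgeR), and within V99 to V110 it was 1.13 ± 0.14 (adjusted p = 0.0103).

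In females with fracture Tlr2 had 662, 618, 546 and 590 CPM in the repopulated libraries, against 331, 348, 328 and 352 CPM in the resident ones. The resident libraries lay within a narrow band and every repopulated library was above it. The log2 fold change was 0.83 ± 0.14 (1.78-fold, adjusted p = 0.0104 by edgeR). Without fracture the repopulated females had 828, 718 and 717 CPM, against 567, 369, 630 and 383 CPM in the resident ones. Here the resident libraries split, with replicates 1 and 3 near the level of the repopulated females with fracture and replicates 2 and 4 near that of the resident females with fracture. The groups still did not overlap, and the log2 fold change was 0.63 ± 0.15 (1.55-fold, adjusted p = 0.041 by edgeR). This call had the largest adjusted p of the 4 and was lost when any 1 of 12 of the 15 female libraries was left out. The 12 were all 3 repopulated ones without fracture, all 4 resident ones with fracture, replicates 2 and 4 of the resident ones without fracture, and replicates 1, 2 and 4 of the repopulated ones with fracture. The adjusted p was then 0.0502 to 0.168, while the log2 fold change stayed between 0.52 and 0.77 over the 15 fits that left out a library each.

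**Figure D2:**
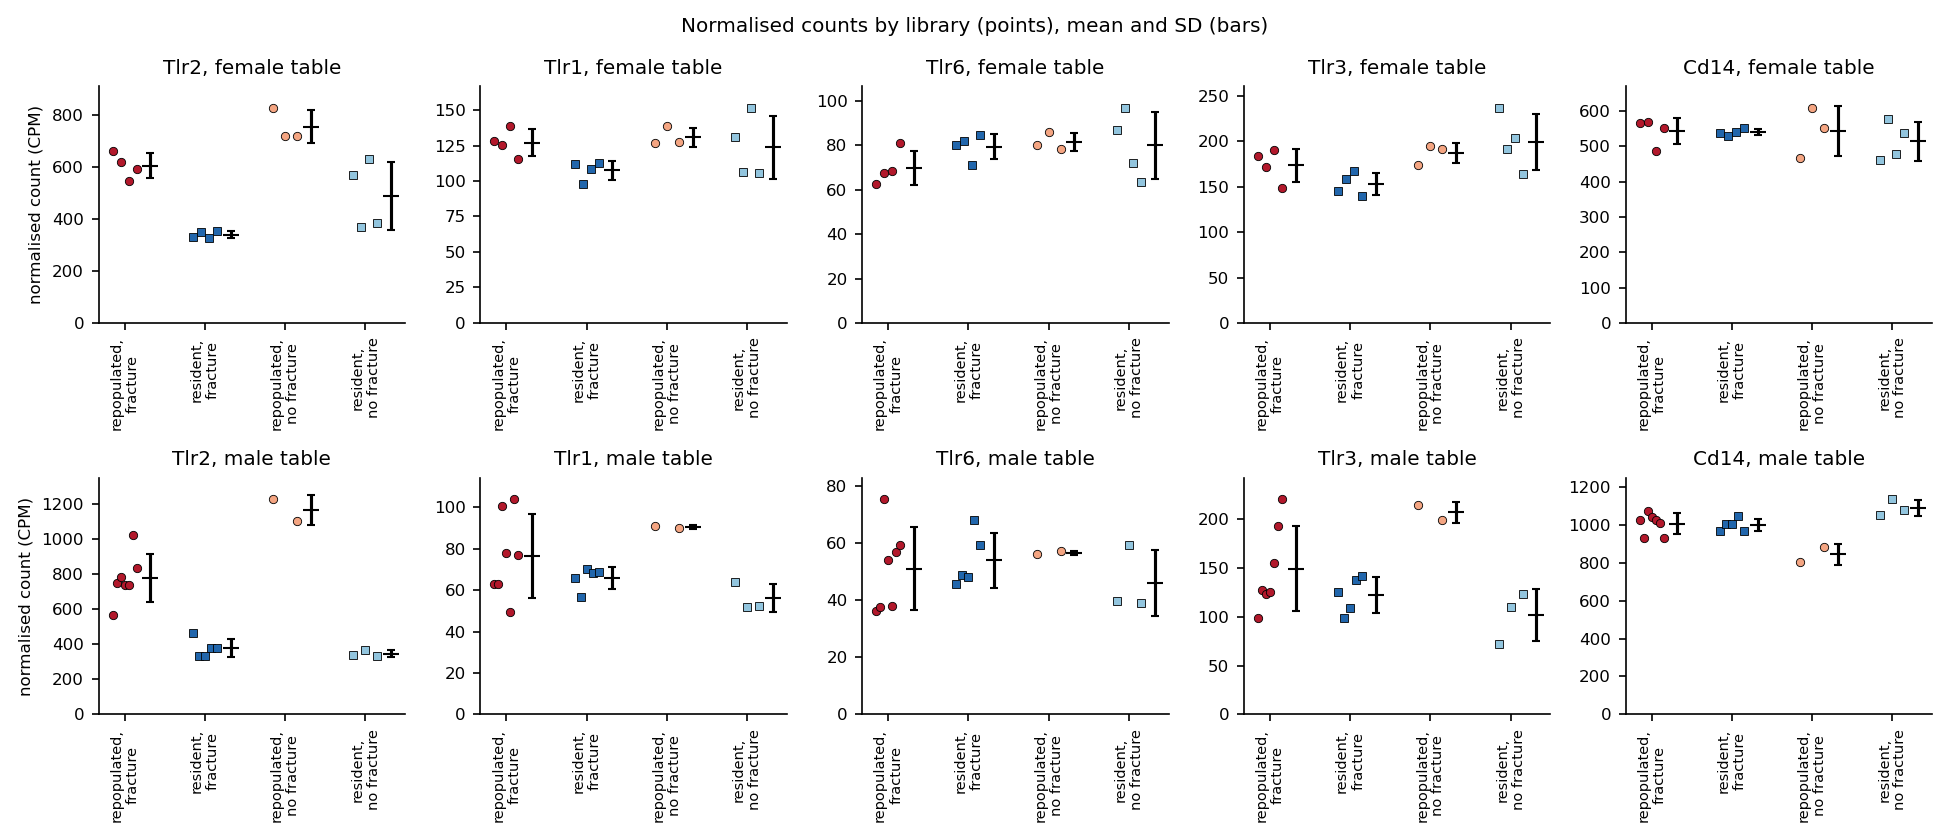
Normalised count (CPM) of Tlr2, Tlr1, Tlr6, Tlr3 and Cd14 in each library of the female (top) and male (bottom) table. Points are libraries, and the bar beside them shows the group mean and SD. For Tlr2 the repopulated libraries lie above the resident ones at each fracture state in both tables; for Cd14 both repopulated males without fracture lie below all 3 resident ones.

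The partners of Tlr2 gave smaller differences. Tlr1, which pairs with Tlr2 for lipoproteins with 3 acyl chains, had 91.1 and 89.8 CPM in repopulated males without fracture, against 63.9, 51.9 and 52.4 CPM in resident ones. The groups did not overlap, but the log2 fold change of 0.69 ± 0.22 did not pass (adjusted p = 0.0678 by edgeR). It passed under 6 other settings, which include DESeq2 (adjusted p = 0.0317) and the fits without replicate 5 or replicate 6 of the repopulated males with fracture (adjusted p = 0.0259 and 0.0444). In repopulated females with fracture Tlr1 had 128, 126, 139 and 115 CPM, against 112, 97.9, 108 and 113 CPM in resident ones. The groups met with almost no gap, and the log2 fold change was 0.24 ± 0.11 (adjusted p = 0.332). In the other 2 comparisons Tlr1 overlapped between the groups, with log2 fold changes of 0.08 ± 0.12 in females without fracture and 0.21 ± 0.15 in males with fracture.

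Tlr6, which pairs with Tlr2 for lipoproteins with 2 acyl chains, passed in no comparison. Its log2 fold changes were -0.19 ± 0.12 in females with fracture, 0.03 ± 0.13 in females without, -0.08 ± 0.17 in males with fracture and 0.31 ± 0.27 in males without, and the groups overlapped each time. Tlr1 and Tlr6 are neighbours on the minus strand of chromosome 5 and near copies of each other. Of the stretches of 50 bases in the leading Tlr1 transcript, 454, or 16.6%, also occurred in the leading Tlr6 transcript, while no other pair among the 10 genes shared any. Reads from these stretches had to be divided between both genes by the authors' counting, so the split of counts between Tlr1 and Tlr6 is uncertain.

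The ratio of Tlr2 to the sum of Tlr1 and Tlr6 does not depend on that split. In males with fracture it was 4.46 to 8.46 with a median of 6.12 in repopulated libraries, against 2.79 to 4.16 with a median of 2.97 in resident ones. In males without fracture it was 7.53 and 8.35 in repopulated libraries, against 3.29 to 3.63 in resident ones. In females with fracture it was 2.64 to 3.46 in repopulated libraries, against 1.72 to 1.94 in resident ones. In females without fracture it was 3.20 to 4.00 in repopulated libraries, against 1.82 to 2.81 in resident ones. The ratio did not overlap between the groups in any of the 4 comparisons. Tlr2, its upper term, did not overlap in any of them either, so the ratio is not a separate result. These ratios are of estimated counts within a library, not scaled by length, and were not tested.

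Tlr4, the receptor of lipopolysaccharide, passed in no comparison. Its group means were 192 ± 7.66 CPM in repopulated and 185 ± 19.1 in resident females with fracture (SD, n = 4 each). In males with fracture they were 159 ± 14.4 CPM in repopulated (n = 7) and 150 ± 19.3 in resident libraries (n = 5). Its 4 log2 fold changes for repopulation lay between -0.06 and 0.10, with SEs of 0.10 to 0.16. Ly96, which forms the lipopolysaccharide receptor with Tlr4, also passed in none of the 4 comparisons, with log2 fold changes of -0.44 ± 0.26 to 0.15 ± 0.13.

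Cd14 presents lipopolysaccharide to Tlr4 and also serves Tlr2. It lies on chromosome 18 (GRCm38, positions 36725067 to 36726798, minus strand). In males without fracture it had 805 and 884 CPM in repopulated libraries, against 1050, 1136 and 1077 CPM in resident ones. Both repopulated libraries were below all resident ones, and the log2 fold change was -0.36 ± 0.08 (adjusted p = 0.0062 by edgeR). The call was lost without replicate 1 of the repopulated libraries (-0.30 ± 0.10, adjusted p = 0.103). With fracture Cd14 did not pass in males, with 930 to 1075 CPM and a median of 1026 in repopulated libraries, against 969, 1004, 1006, 1048 and 970 CPM in resident ones, a log2 fold change of 0.01 ± 0.05. In females the 2 log2 fold changes were 0.01 ± 0.09 with fracture and 0.08 ± 0.09 without. The count of Cd14 per count of Tlr2 was 0.654 and 0.799 in repopulated males without fracture, against 3.08 to 3.24 in resident ones. Tlr2, the lower term of this ratio, was itself 3.37-fold higher there. With fracture, where Cd14 did not pass, the ratio was 0.986 to 1.81 against 2.09 to 3.01 in males. In females it was 0.853 to 0.935 against 1.52 to 1.65 with fracture, and 0.565 to 0.849 against 0.758 to 1.57 without. This ratio was not tested.

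Tlr3, on chromosome 8 (GRCm38, positions 45395665 to 45411080, minus strand), was the receptor of the internal vesicles that passed. In males without fracture it had 215 and 199 CPM in repopulated libraries, against 72.5, 110 and 123 CPM in resident ones, a log2 fold change of 1.02 ± 0.27 (2.03-fold, adjusted p = 0.0209 by edgeR). The groups stood apart, with the lowest resident library, replicate 1, well below the other two. The call was lost without that library (0.83 ± 0.27, adjusted p = 0.0915) and without replicate 1 (0.97 ± 0.34, adjusted p = 0.113) or replicate 2 (1.08 ± 0.33, adjusted p = 0.0961) of the repopulated libraries. Tlr3 is divided into several listed transcripts. The leading one, of 4407 bases, held 60.3% of its counts in repopulated and 82.2% in resident males without fracture, while a second one, of 4093 bases, held 28.5% in repopulated and 10.7% in resident males. For the leading transcript alone the log2 fold change was 0.73 ± 0.27 (adjusted p = 0.238). With fracture the male values were 98.99 to 220 CPM with a median of 127 in repopulated libraries, against 125, 98.3, 108.998, 138 and 141 CPM in resident ones. The groups overlapped (0.29 ± 0.17, adjusted p = 0.482). In females the log2 fold changes were 0.18 ± 0.11 with fracture and -0.09 ± 0.12 without.

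Tlr7, Tlr9 and Tlr13, the other receptors of nucleic acids, passed in no comparison. Tlr7 gave log2 fold changes of 0.06 to 0.15 with SEs of 0.09 to 0.16, and Tlr13 of -0.02 to 0.14 with SEs of 0.08 to 0.13. The SEs of Tlr9, 0.39 to 0.75, were several times larger, and its SD within a group was 13.1 to 78.6% of the mean. Its female log2 fold changes of 0.64 ± 0.39 with fracture and 0.62 ± 0.42 without were within this spread and did not pass. Unc93b1, the chaperone that carries these receptors out of the endoplasmic reticulum, had log2 fold changes of 0.14 ± 0.05 to 0.24 ± 0.08, all above 0, and passed in none (adjusted p = 0.0624 to 0.226 by edgeR). Myd88, on chromosome 9, had 87.8 to 128 CPM over all male repopulated libraries and 85.0 to 114 CPM over all male resident ones. Its 4 log2 fold changes lay between -0.17 ± 0.11 and 0.05 ± 0.15.

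**Figure D3:**
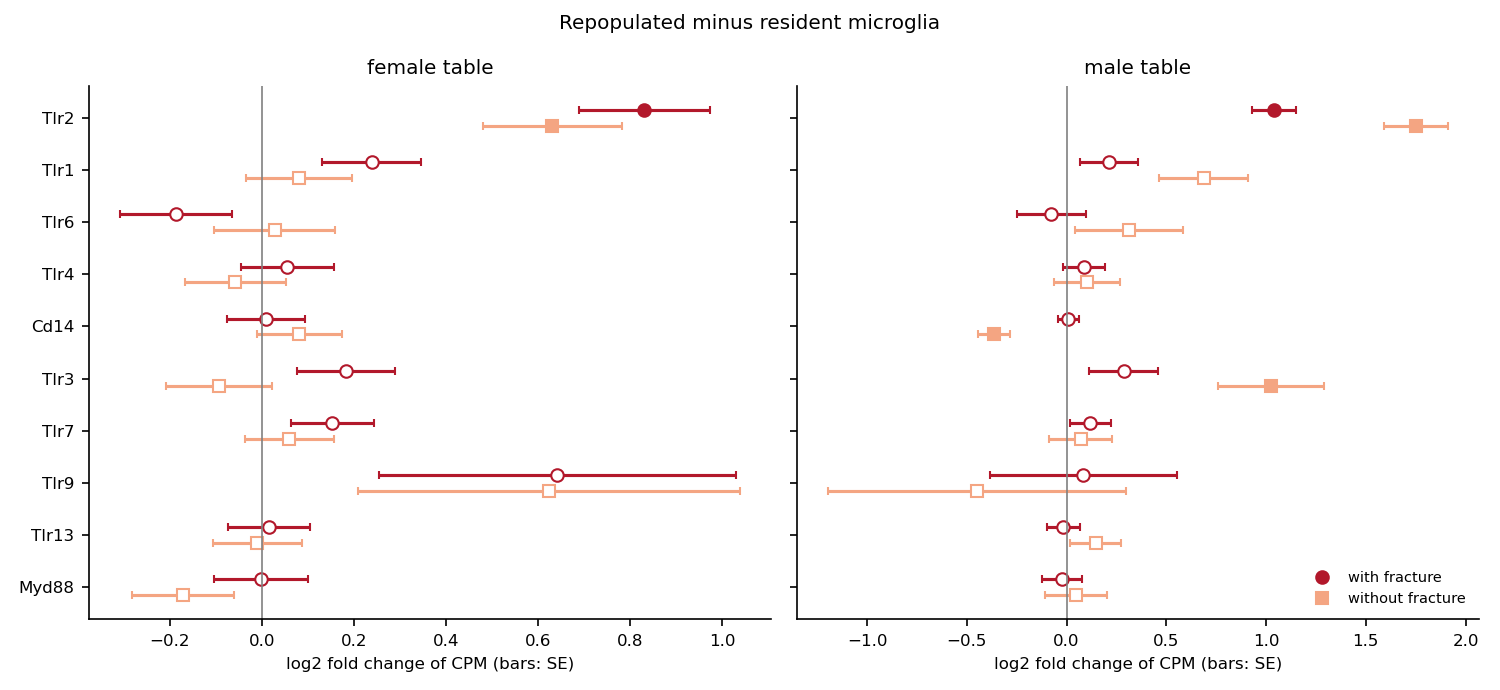
Log2 fold change of CPM, repopulated over resident, for each gene in the female (left) and male (right) table, with fracture (circles) and without (squares). Bars are SEs, and filled symbols have an adjusted p below 0.05. Tlr2 is filled in all 4 comparisons, Tlr3 and Cd14 in males without fracture, and the axes differ between the tables.

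Counted over the 10 genes, 1 rose in females with fracture, where 1.27% of all genes were called higher and 1.08% lower. In females without fracture 1 rose, against 1.56% of all genes called higher and 0.964% lower. In males with fracture 1 rose, against 3.03% of all genes called higher and 1.88% lower. In males without fracture 2 rose and 1 fell, against 4.7% of all genes called higher and 2.72% called lower. The median log2 fold change of the 10 genes was 0.10 and 0.04 in females with and without fracture, beside 0.00 and -0.02 for all genes. In males it was 0.09 with fracture and 0.12 without, beside 0.00 and -0.03. The groups did not overlap for 3 genes that were higher and 1 that was lower in males without fracture, but there, with 2 libraries against 3, 35.4% of all genes did not overlap. In males with fracture Tlr2 alone did not overlap, against 3.58% of all genes, and in females 2 genes did not overlap with fracture and 1 without, against 11.9% and 13.3% of all genes.

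Other genes of the pathway were counted in 4 lists, which were chosen with earlier results of these data known. Beside them, edgeR called 1.27% of all genes higher and 1.08% lower in females with fracture, and 1.56% and 0.964% without. It called 3.03% higher and 1.88% lower in males with fracture, and 4.7% and 2.72% without. Among 17 listed female and 16 listed male genes of other receptors, chaperones and co-receptors, 2 rose in females with fracture, 2 in females without and 4 in males without, and in males with fracture 1 rose and 1 fell. Pld4, an exonuclease of internal vesicles that degrades the ligands of nucleic acid receptors, rose in all 4 comparisons, by 0.24 ± 0.05 and 0.34 ± 0.06 on the log2 scale in females with and without fracture and by 0.27 ± 0.05 and 0.29 ± 0.07 in males (adjusted p = 0.00139 to 0.026 by edgeR). Its relative Pld3 rose without fracture, by 0.68 ± 0.16 in females and 0.86 ± 0.15 in males. Ly86, a partner of the Toll-like protein Cd180, rose in females with fracture (0.30 ± 0.06). Cd36, a scavenger receptor that assists Tlr2, rose in males without fracture, where it averaged 51.2 ± 26.4 CPM in repopulated (SD, n = 2) and 4.49 ± 1.29 CPM in resident libraries (n = 3), and so did Dnase2a, a nuclease of the lysosome (0.55 ± 0.15). Tlr5, the receptor of flagellin, fell in males with fracture (-2.31 ± 0.67, adjusted p = 0.0494 by edgeR), at levels of 1.23 ± 1.29 CPM in repopulated and 6.14 ± 2.18 CPM in resident libraries.

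Of 25 listed adaptors and kinases none passed in females (unadjusted p below 0.05 for 2 genes with fracture, against 13.7% of all genes, and 3 without, against 15.3%), and in males 1 rose with fracture while 1 rose and 1 fell without. The gene that rose in males was Irf7, a factor that turns on interferon genes below Tlr7 and Tlr9. It averaged 182 ± 120 CPM in repopulated (n = 7) and 36.0 ± 12.04 CPM in resident males with fracture (n = 5), and 352 ± 33.6 CPM in repopulated (n = 2) and 18.3 ± 5.50 CPM in resident males without (n = 3). Irf5, a related factor that acts with Myd88, fell in males without fracture (-0.31 ± 0.09, adjusted p = 0.032 by edgeR). The proximal partners Irak4, Traf6, Ticam1 and Tirap passed in none of the 4 comparisons, and their log2 fold changes ranged from -0.44 ± 0.16 for Tirap in females without fracture to 0.21 ± 0.19 for Ticam1 in the same comparison.

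Of 19 listed brakes on the pathway, none passed in females with fracture (unadjusted p below 0.05 for 4, against 13.7% of all genes) and 1 rose in females without. Males with fracture had 1 that rose and 1 that fell, and males without fracture had 3 that rose and 1 that fell. Nfkbia, which holds NF-kappaB in the cytoplasm and is itself one of its targets, rose in females without fracture (0.60 ± 0.14) and in males with fracture (0.41 ± 0.10). Tnfaip3, an enzyme that ends NF-kappaB signals, rose in males without fracture (0.85 ± 0.20), as did Socs1 (1.26 ± 0.33) and Socs3 (0.70 ± 0.20), inhibitors of cytokine signals. Cd300a, an inhibitory surface receptor, fell in males by 0.50 ± 0.10 with fracture and by 0.83 ± 0.16 without.

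Of 18 transcriptional outputs of the pathway listed in males, 9 rose with fracture and 12 without, and none fell. Among all genes of the male table, 3.03% and 4.7% were called higher. Since the list was chosen with earlier results known, these counts are not an independent test of the pathway. Of 19 outputs listed in females Nfkb2, a subunit of NF-kappaB, alone was called (0.52 ± 0.13 with fracture and 0.75 ± 0.14 without). Among all genes of the female table, 1.27% and 1.56% were called higher. An unadjusted p below 0.05 by edgeR was found for 7 female outputs with fracture, against 13.7% of all genes. Without fracture it was found for 5, against 15.3%. The chemokine Ccl2 averaged 65.6 ± 20.3 CPM in repopulated and 16.1 ± 4.64 CPM in resident males with fracture, and 109.4 ± 41.7 CPM in repopulated and 10.001 ± 3.29 CPM in resident males without. Cxcl10, a chemokine that interferon also turns on, averaged 94.6 ± 61.7 CPM in repopulated and 12.9 ± 5.29 CPM in resident males with fracture, and 221 ± 17.4 CPM in repopulated and 4.51 ± 3.46 CPM in resident males without. Relb, another subunit of NF-kappaB, rose in males by 0.40 ± 0.11 with fracture and by 1.04 ± 0.17 without, and Icam1, an adhesion protein, by 0.33 ± 0.09 and 0.81 ± 0.14. The median log2 fold change of the outputs was 0.83 with fracture and 1.28 without in males, and 0.52 with fracture and 0.27 without in females, beside -0.03 to 0.00 for all genes.

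Several genes of macrophages of circulating origin rose beside Tlr2. Of 10 such genes, 6 rose in females with fracture, 4 in females without, 4 in males with fracture and 6 in males without, and none fell. Among all genes, 1.27%, 1.56%, 3.03% and 4.7% were called higher in these comparisons. This list, too, was chosen with earlier results of these data known. The summed level of the 10 genes in females with fracture was 2856 to 3415 CPM in repopulated libraries, against 1321 to 1445 CPM in resident ones. In females without fracture it was 3339 to 4503 CPM in repopulated libraries, against 1164 to 2506 CPM in resident ones. In males with fracture it was 1397 to 3038 CPM in repopulated libraries, against 834 to 1395 CPM in resident ones, and in males without fracture 2927 and 4000 CPM, against 699 to 804 CPM. The 2 resident females without fracture that were high in Tlr2, replicates 1 and 3, were also the highest of their group in this sum (1809 and 2506 CPM), and the repopulated male that was lowest in Tlr2, replicate 1 with fracture, was the lowest in its group (1397 CPM). That library also had 3138 CPM in 7 genes of the response to dissociation, against 679 to 804 CPM in the other 6 of its group. Ms4a7, one of the genes that best mark such macrophages, was between 0 and 4.49 CPM in resident and between 1.37 and 50.9 CPM in repopulated libraries, and some microglia also use Axl and Lyz2, the most abundant of the list. The part of these cells or genes in the level of Tlr2 was not tested.

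Of 7 monocyte markers, 3 were listed in females and 2 in males, with Itgal called higher in females without fracture. Their sum was at most 93.9 CPM in any library, in a resident male with fracture. Without fracture the repopulated females had 36.2 to 53.3 CPM, against 4.71 to 35.1 CPM in resident ones. The repopulated males had 30.7 and 32.2 CPM there, against at most 11.7 CPM in resident ones. With fracture the groups overlapped, at 11.3 to 19.1 against 4.11 to 12.5 CPM in females. In males with fracture they held 3.75 to 34.1 against 1.74 to 93.9 CPM. Of 6 markers of border macrophages, 2 were listed in females and 3 in males, none was called, and their sum was 0.732 to 45.4 CPM over all libraries. In females with fracture it was 4.48 to 21.1 CPM in repopulated libraries, against 0.732 to 3.01 CPM in resident ones. In females without fracture it was 2.42 to 11.2 CPM, against 0.934 to 1.82 CPM. The male groups overlapped, at 6.63 to 45.4 against 2.90 to 8.49 CPM with fracture. Without fracture they held 3.33 to 22.2 against 3.91 to 9.84 CPM. The part of monocytes and border macrophages in the level of Tlr2 was not tested. Of the 3 listed B cell genes, 2 fell in females with fracture, 3 in females without, 2 in males with fracture and 1 in males without. Among all genes, 1.08%, 0.964%, 1.88% and 2.72% were called lower in these comparisons. None of 6 markers of T and natural killer cells was listed, and of 6 neutrophil markers Csf3r alone was, a gene that microglia also use. Every listed transcript had at least 10 counts in at least 8 female or 9 male libraries. A marker present in a single group could thus be missing from the tables. Csf3r rose in females with fracture (0.37 ± 0.06), in males with fracture (0.36 ± 0.08) and in males without (0.50 ± 0.12), and its part in the level of Tlr2 was not tested.

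**Figure D4:**
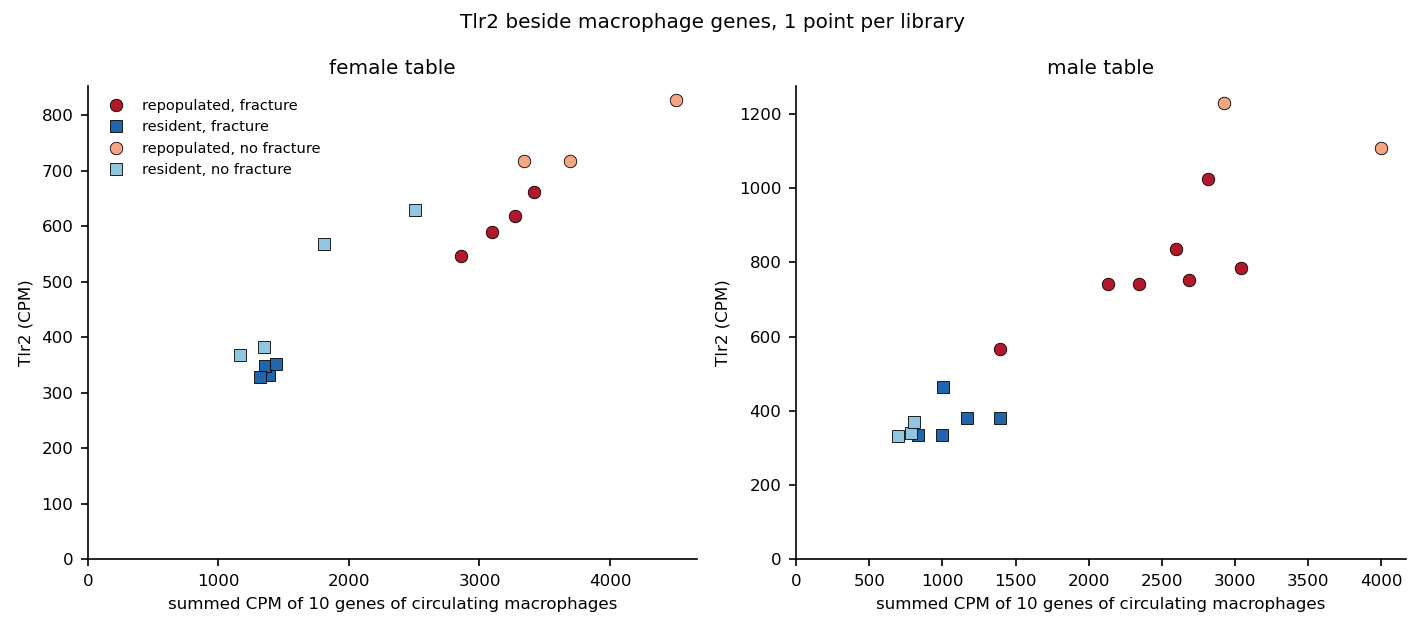
Tlr2 level (CPM) against the summed level (CPM) of 10 genes of macrophages of circulating origin, 1 point per library, in the female (left) and male (right) table. At each fracture state the repopulated libraries lie above the resident ones in the sum and in Tlr2, narrowly so for the sum in males with fracture. In females the resident libraries without fracture span 1164 to 2506 CPM of the sum.

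The genes most like Tlr2 were sought by the lower of the 2 Pearson correlations of log2 CPM over the 15 female and 17 male libraries, among 8885 genes. They were Cd72 (r = 0.97 in females and 0.98 in males), a lectin-like inhibitory receptor known from B cells, Cxcl16 (0.95 and 0.98), a chemokine held on the membrane, and Slc2a6 (0.95 and 0.98), a sugar transporter of the lysosome. Libraries of one group share their state, so these values describe the groups as much as single libraries. Cd72 averaged 258 ± 62.8 CPM in repopulated and 47.5 ± 6.79 CPM in resident males without fracture, and 160 ± 23.3 CPM in repopulated and 59.4 ± 4.599 CPM in resident females with fracture. Over all genes the median correlation with Tlr2 was -0.05 in females and -0.03 in males, and 1.15% of genes in females and 1.66% in males were above 0.9.

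Tlr1 was most like Cst7 (r = 0.82 and 0.78), an inhibitor of cathepsins, followed by Itgax and Cxcl16. Tlr3 was most like Dtx3l (0.84 and 0.90), a ubiquitin ligase, Morc3 and Helz2, of which Dtx3l and Helz2 are known as genes turned on by interferon. Dtx3l averaged 136 ± 24.5 CPM in repopulated and 51.0 ± 18.9 CPM in resident males without fracture. The best partners of the other 7 genes had lower correlations, at most 0.79. Between the genes described here, the highest pair by the lower correlation was Tlr2 with Tlr1 (0.78 in females and 0.67 in males). Tlr3 with Tlr7 followed (0.58 in both). In males alone the highest pair was Tlr2 with Tlr3 (0.76, against 0.51 in females).

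Fracture called none of the 10 genes by edgeR, in a setting where it called few genes at all: 0% of all genes in resident and in repopulated females, and 0.00833% in resident and in repopulated males. At an unadjusted p below 0.05 there were 3 of the 10 genes in resident females, against 4.93% of all genes, and 0 in repopulated females, against 10.5%. There were 0 in resident males, against 4.26%, and 2 in repopulated males, against 8.29%. DESeq2 called 2 of the 10 genes, Tlr2 and Cd14, in repopulated males, where it called 52, or 1.78%, of the 2927 genes to which it gave an adjusted p. It called 0 of the 10 in resident males (0.1% of all genes with an adjusted p), in resident females (0.0391%) and in repopulated females (0.665%). DESeq2 gave no adjusted p to Tlr9 in resident females, nor to Tlr6 and Tlr9 in repopulated males and in the interaction of repopulation and fracture in males. The fracture comparisons use the same libraries as those of repopulation, so they are not independent of them.

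Tlr2 was lower with fracture in repopulated males, where all 7 libraries with fracture (566 to 1025 CPM) were below both libraries without (1231 and 1107 CPM). The log2 fold change of -0.59 ± 0.14 did not pass by edgeR (adjusted p = 0.285), while DESeq2 gave -0.60 ± 0.15 (adjusted p = 0.0105). Without replicate 6 of the libraries with fracture it was -0.66 ± 0.12, which passed (adjusted p = 0.0247 by edgeR). In repopulated females the libraries with fracture (546 to 662 CPM) were also all below those without (717 to 828 CPM), at -0.32 ± 0.15 (adjusted p = 0.477). In resident females those with fracture (328 to 352 CPM) were below those without (369 to 630 CPM), at -0.52 ± 0.14 (adjusted p = 0.884). Non-overlapping groups were found for 7.08%, 13% and 3.09% of all genes in these 3 comparisons, of repopulated males, repopulated females and resident females. In resident males, where 4.53% of all genes did not overlap, the Tlr2 values did (0.13 ± 0.13).

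Cd14 in repopulated males had 930 to 1075 CPM in the libraries with fracture, each above the 805 and 884 CPM of those without. The log2 fold change of 0.25 ± 0.07 did not pass by edgeR (adjusted p = 0.331) and passed narrowly by DESeq2 (adjusted p = 0.0495). In resident males it had 969 to 1048 CPM with fracture, each library below the 1050 to 1136 CPM of those without, and the log2 fold change of -0.12 ± 0.06 did not pass. Tlr3 and Tlr7 in resident females were -0.38 ± 0.11 and -0.22 ± 0.09, neither of which passed after adjustment (adjusted p = 0.884 and 0.94 by edgeR).

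**Figure D5:**
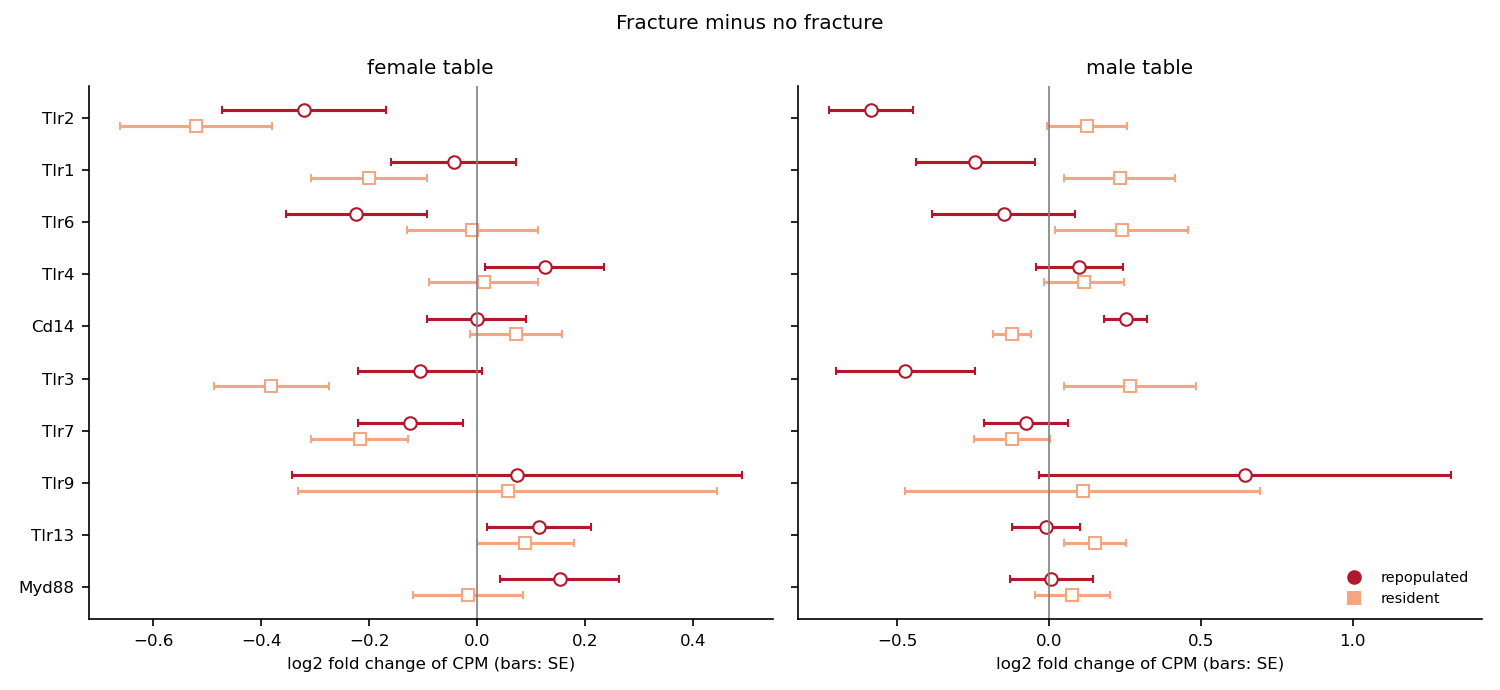
Log2 fold change of CPM, fracture over no fracture, in repopulated (circles) and resident (squares) microglia of the female (left) and male (right) table. Bars are SEs; no symbol is filled, since no gene had an adjusted p below 0.05 by edgeR. Tlr2 lies below 0 except in resident males.

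Whether repopulation had another effect with than without fracture was tested as an interaction, the difference between the 2 log2 fold changes. None of the 10 genes passed by edgeR in either table, where it called 0% of all genes in females and 0.00833% in males. At an unadjusted p below 0.05 there were 0 of the 10 genes in females, against 3.69% of all genes, and 3 in males, against 7.38%: Tlr2 (-0.71 ± 0.19, adjusted p = 0.367), Tlr3 (-0.74 ± 0.32, adjusted p = 0.619) and Cd14 (0.37 ± 0.10, adjusted p = 0.349). DESeq2 called 0 of the 10 genes in females, where it called 0.00748% of all genes with an adjusted p. In males it called 2, Tlr2 (adjusted p = 0.0275) and Cd14 (adjusted p = 0.0249), beside 41, or 1.52%, of the 2694 genes with an adjusted p. The difference for Tlr2 in males thus passed by DESeq2 and not by edgeR. In females the interaction of Tlr2 was 0.20 ± 0.21 by edgeR, of the opposite sign to that in males.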

How the data were processed

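RNA of sorted mouse microglia was sequenced in 32 libraries. The authors deposited 1 table of estimated counts per transcript for each sex, as whole numbers. Per the submitters' processing notes, the tools were Trim Galore 0.6.7, cutadapt 3.4, STAR 2.7.6a, RSEM 1.3.1 and DESeq2 1.34.0, with the build GRCm38; the annotation release is not given in the sources used here. Each transcript in the tables had at least 10 counts in at least 8 (female) or 9 (male) libraries, so weaker transcripts do not enter gene sums.

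Counts were summed by gene identifier and fitted over the 4 groups of a table with edgeR 4.0.16 in R 4.3.3 (filterByExpr, TMM, robust quasi-likelihood test), with Benjamini-Hochberg adjustment over all genes of the table. The SE of a log2 fold change is its size divided by the square root of F. Counts were simulated for repopulated against resident libraries with fracture, with a dispersion, the spread beyond counting noise, of 0.02 for every gene. All 100 genes changed by a log2 of 1 were recovered in each table, and of 100 changed by 0.6, 70 in females and 83 in males. False calls numbered 22 in females and 3 in males. Comparisons without fracture were not simulated. These rates do not cover genes that vary more. The SD of Tlr2 in resident females without fracture was 27.0% of the mean, and that of Tlr9 reached 78.6%, in resident males without fracture. DESeq2 1.42.0 served as an alternative; others changed the scaling, the filter, the libraries, the replicate block, the V number range and the counting unit.

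Lengths and positions came from GENCODE M21 on GRCm38, where the Tlr6 transcripts have another version and 1 Tlr6 transcript of the female table, with 8.22% of its counts, has no entry; it was left out of the length-scaled level. Promoter windows came from RefSeq on GRCm38.p6. Correlations used log2(CPM + 1) over genes with a mean of at least 5 CPM in both tables. The genes named are the 10 described, members of 4 pathway lists that were called (up to 6 per comparison by adjusted p), 6 proximal partners, and the 3 genes most like each of the 10. Gene members and lists were chosen with earlier results of these data known. The number of libraries, 2 to 7 per group, limits the precision.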

Additional observations from a re-analysis of the deposited data

Results flagged for a closer look

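Each of the 10 genes was checked by Dixon's test in each group of 4 to 7 libraries, 50 checks in all. In 2 of them 1 library stood apart from the rest of its group, where chance gives about 1 in 20. The checks share libraries and are not independent. Both were in repopulated females with fracture and both were low. Myd88 had 92.04 CPM in replicate 3, against 108.7, 110.7 and 111.4 CPM in the other libraries of that group. Tlr9 had 3.47 CPM in replicate 2, against 6.87, 6.97 and 7.48 CPM in the others. Neither gene passed the test in a comparison of that group.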

How the results depend on the processing

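The count of genes called among the 10 moved as follows. In females without fracture, repopulated against resident, the 1 call became 0 with library totals only, with only the groups compared, with the leading transcript, and with the replicate number as a block, and was 0 to 1 when 1 library was left out. In males without fracture the 3 calls were 1 to 4 when 1 library was left out; without replicate 1 of the repopulated libraries Tlr2 alone remained. Cd14 was also lost there with only the groups compared (adjusted p = 0.0971 by edgeR). For fracture in repopulated males the 0 calls became 2 with DESeq2, 1 with the replicate block (Tlr3, log2 fold change -0.91 ± 0.17, adjusted p = 0.0384 by edgeR) and 0 to 1 when 1 library was left out. The interaction in males had 2 calls with DESeq2, against 0. The cause was not tested. Numbers of all genes called varied too: 338 in females without fracture (0 to 676 over the settings other than leaving out a library), 315 with fracture (85 to 680), 890 in males without fracture (615 to 1156) and 589 with fracture (39 to 840).

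Tlr2 kept its call in males without fracture, males with fracture and females with fracture under every setting run, with an adjusted p of at most 0.000179, 0.0397 and 0.0455. No called gene changed its direction. Same-numbered libraries did not deviate together (r of -0.57 to 0.44 over 21 female pairs, of which 4 were over 0.1, and -0.09 to 0.09 over 17 male pairs), so the replicate numbers were not taken as pairs. All male libraries without fracture are in 1 range of V numbers, so their comparison could not be split by it. Tlr9 had the lowest counts, 6 to 197 per library, and the widest SEs of the 10 genes; the part of depth in them was not tested.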
